A study of Spirodela polyrhiza with 13 samples.

Results

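A group of 72 genes of the greater duckweed Spirodela polyrhiza had low levels in fronds of developmental stages 2 to 4 and higher levels at stages 5 and 6. The genes were chosen by their stage means in FPKM (fragments assigned to a gene, relative to its length in kilobases and to the library total): below 1 FPKM at each of stages 2, 3 and 4, and at least 3 FPKM at both stages 5 and 6. They are 72 of 19623 genes listed. The step between stage 4 and stage 5 is therefore how they were found, and it is described here without a test. The working description of these genes as silent until stage 5 did not hold literally, because every one of the 72 had at least 1 read at stages 2 to 4.

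Duckweeds are small floating plants whose leaf-like body, the frond, buds from pockets of a mother frond, grows and then matures. As a frond expands, gas spaces called aerenchyma form inside it, which aid buoyancy and gas exchange, and plant hormones take part in that process in many species. The study followed messenger RNA through this sequence to ask how hormones relate to the arrangement of the aerenchyma.

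RNA came from frond tissue of wild-type plants, with 3 libraries each for stages 2, 3 and 4 and 2 libraries each for stages 5 and 6. All plants were kept in SH medium changed at 7-day intervals, with 16 h light and 8 h dark, at 23 °C in the day and 20 °C at night. The labels number the stages without describing them and do not say whether libraries of a stage are from different plants, so the p-values speak only of how far these libraries scatter, part of which may be technical. The libraries held between 7708200 and 10910370 reads assigned to genes, as recovered from the FPKM values. The file lists gene IDs with no gene names, so no role can be given for any of the 72 genes, and IDs are printed as they stand.

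Few genes of low early level followed this course. Of 2286 genes below 1 FPKM at stages 2 to 4 with a value in some library, 129 (5.64%) reached 3 FPKM at stage 6 and 86 (3.76%) at stage 5. The 72 genes reached it at both, 57 at stage 6 but not stage 5, and 14 at stage 5 but not stage 6. The 14 genes past the limit at stage 5 alone still had 1.40 to 2.81 FPKM at stage 6, with a median of 1.84. There was thus no gap in levels at the limit.

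The gene closest to both limits was Spipo19G0017400 (coding length 1524 bases), whose means were 0.240, 0.998, 0.926, 3.04 and 5.90 FPKM at stages 2 to 6. Just outside were Spipo4G0011500, with a highest early mean of 0.563 FPKM but 2.88 FPKM at stage 5, and Spipo8G0070700, with 1.01 FPKM at stage 2 and 13.3 FPKM at stage 5. A smaller late mean below 4 FPKM was found for 14 of the 72 genes, and a largest early mean of at least 0.9 FPKM for 6.

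The reverse course was rarer still. With the limits exchanged, 5 genes had at least 3 FPKM at each of stages 2, 3 and 4 and less than 1 FPKM at stages 5 and 6. They are Spipo20G0017500, Spipo26G0020700, Spipo28G0021200, Spipo7G0032400 and Spipo9G0044700, named after their values were seen. After each library was scaled by its median ratio, no gene met the exchanged limits, and 81 genes met the limits used to choose the 72.

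**Figure D1:**
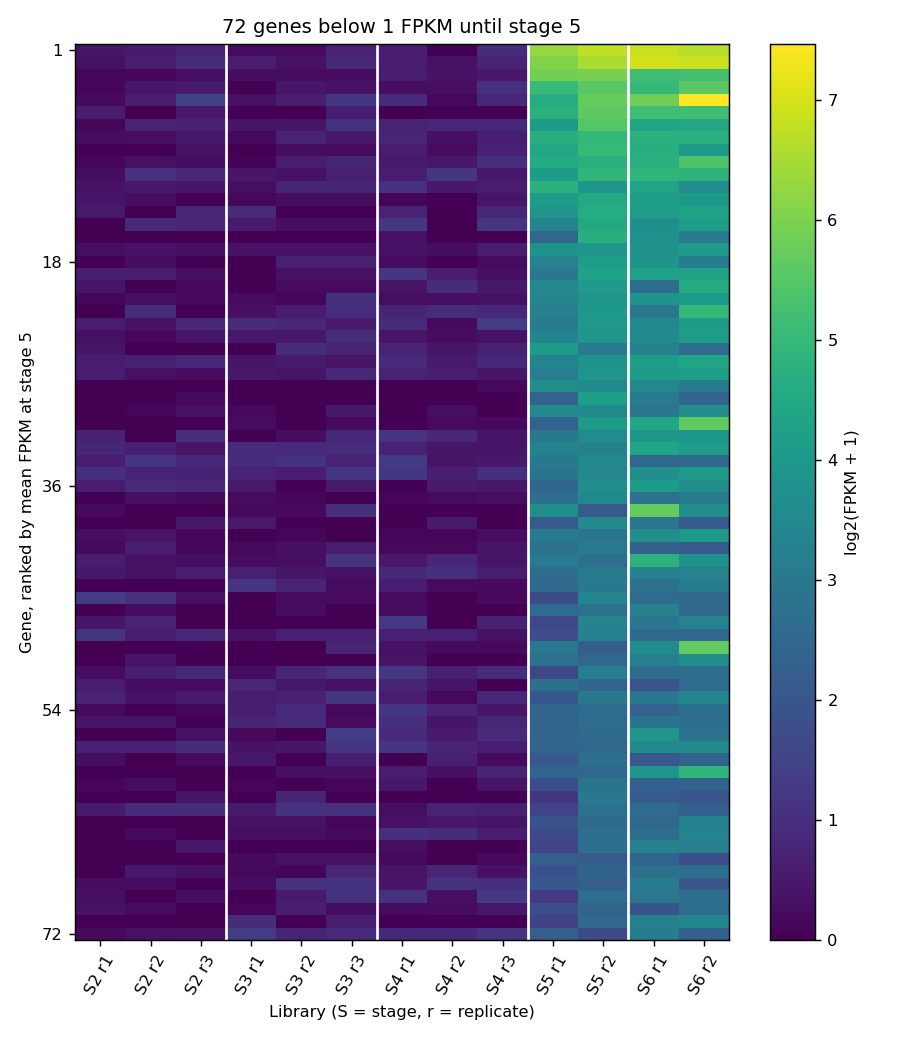
Level of each of the 72 genes as log2(FPKM + 1), by color, in the 13 libraries, with genes ranked by their mean at stage 5 and white lines between stages. The 9 libraries of stages 2 to 4 are dark throughout, and within stage 5 most genes are brighter in replicate 2 than in replicate 1.

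The median gene had mean levels of 0.227, 0.326 and 0.459 FPKM at stages 2, 3 and 4, then 7.98 FPKM at stage 5 and 10.4 FPKM at stage 6. The median over the 15608 genes tested was 26.0, 26.6, 25.2, 22.7 and 22 FPKM at the same stages. The 72 genes thus stayed mostly below the typical gene even at their height. The middle of the group spanned 6.06 to 18.5 FPKM at stage 6 and 4.77 to 13 FPKM at stage 5 (lower to upper quartile). A mean of 10 FPKM or more was reached by 37 genes at stage 6 and by 30 at stage 5. In bulk tissue, more cells of one type and more RNA per cell cannot be told apart.

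Summed over the 72 genes, and given as reads out of every 1000000 assigned to genes (RPM), the level was 16.9, 19.5 and 20.6 RPM in the stage 2 libraries, 19.4, 23.4 and 36.4 at stage 3, and 34.1, 24.2 and 31.2 at stage 4. The stage 5 libraries held 745 and 1026 RPM and the stage 6 libraries 1031 and 1214. The late libraries lay far above all early ones, and stage 5 replicate 1 was the lowest of the late libraries. The total was unevenly divided, since 10 genes held 51.0% of the 33489 reads that the group had at stages 5 and 6.

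**Figure D2:**
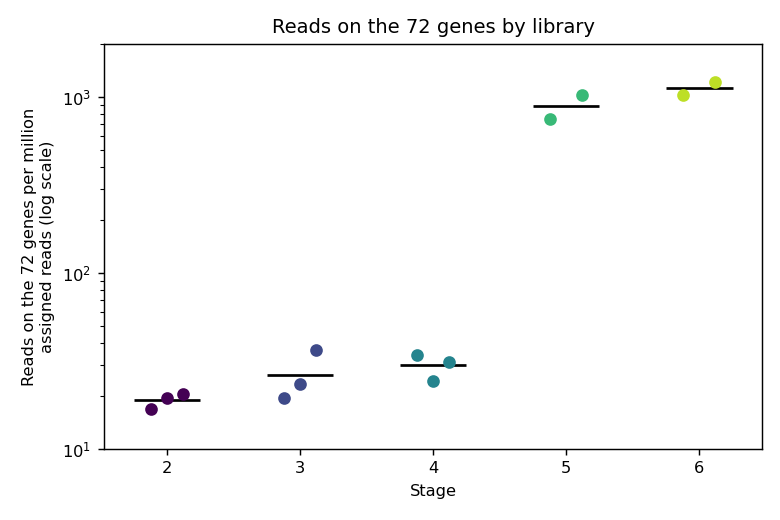
Summed RPM of the 72 genes in each library (points, log scale), with the mean of each stage as a bar. Values lie between 16.9 and 36.4 at stages 2 to 4 and between 745 and 1214 at stages 5 and 6.

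The RPM at stage 5 was higher than that of stages 2 to 4 pooled by a median factor of 30.7 over the 72 genes, with quartiles of 14.2 and 57.0 and a range of 4.14 to 811. The factor was at least 10 for 61 genes and at least 100 for 11. On the log2(FPKM + 1) scale, which compresses values near and below 1 FPKM, the median difference of stage 5 minus stage 4 was 2.70. The rule fixes the direction of these differences. All 4 late libraries lay above all 9 early libraries for 71 genes, and the exception was Spipo23G0024200, with 1.35 FPKM in stage 5 replicate 1 and 1.37 FPKM in stage 4 replicate 3.

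The signal at stages 2 to 4 was small but not absent. Over these 9 libraries the genes had 1 to 100 reads each, with a median of 22 and quartiles of 10.8 and 43.2. At least 50 reads were found for 16 genes (22.2%), and at most 3 reads for 10 (13.9%). No read was found for 9 genes at stage 2, for 6 at stage 3 and for 5 at stage 4. In single early libraries 30 of the 72 genes reached 1 FPKM or more, at most 1.70 FPKM.

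Summed over the group, early reads were not spread evenly over the early stages, although single genes with few reads cannot be ordered. For 52 of the 72 genes (72.2%) the mean at stage 4 was above that at stage 2, against 51.3% of the 2214 other genes below 1 FPKM at stages 2 to 4. Genes with equal means, such as those without a read at either stage, count here as not above. How many there were in each set was not counted, and the rule itself used both means, so the shares cannot be compared. The highest early mean fell at stage 2 for 11 genes, at stage 3 for 25 and at stage 4 for 36. Libraries of a stage differed in this: 12 of the genes were at 1 FPKM or more in stage 3 replicate 3 and 13 in stage 4 replicate 1, against 2 to 7 in the other early libraries. In summed RPM, stages 3 and 4 overlapped, while each stage 4 library lay above each stage 2 library. The gap was narrow at its closest, with 24.2 RPM in stage 4 replicate 2 and 20.6 RPM in stage 2 replicate 3.

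The genes nearest to silence at stages 2 to 4 were named after their values were seen. Spipo15G0019800 (375 bases) had 1 read there, in stage 4 replicate 1, and then 4.50 and 24.9 FPKM at stage 5 and 13.1 and 7.20 FPKM at stage 6. Spipo2G0030200 (606 bases) had 1 read, in stage 2 replicate 3, and then 4.07 and 17.7 FPKM at stage 5 and 7.69 and 4.46 FPKM at stage 6. Both genes were highest in stage 5 replicate 2 and had a several times lower value in the other stage 5 library. Spipo5G0039400 (1677 bases) had 2 reads, both in stage 4 replicate 3, against 309 reads at stage 5, a factor of 811 in RPM. That factor rests on 2 early reads, and the rule chose the genes by this step, so its size is only loosely known. The late values of Spipo5G0039400 were close together, at 11.8 and 10.6 FPKM at stage 5 and 9.88 and 8.05 FPKM at stage 6. Spipo1G0120600 (333 bases) also had 2 early reads, and 29 and 56 reads at stages 5 and 6.

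Both genes with the highest means at stage 5 stayed below 1 FPKM in every early library. Spipo0G0190900 (672 bases) had 0.333, 0.464 and 0.682 FPKM at stage 2, 0.163, 0.161 and 0.640 at stage 3, 0.474, 0 and 0.978 at stage 4, 79.0 and 106.9 at stage 5, and 117 and 98.3 at stage 6. Its stage 6 and stage 5 libraries overlapped (log2 difference 0.22, SE 0.29, adjusted p = 0.648, limma). Spipo9G0025900 (417 bases) had 0.269, 0.499 and 0.879 FPKM at stage 2, 0.526, 0.259 and 0.774 at stage 3, 0.509, 0.259 and 0.676 at stage 4, 65.9 and 92.4 at stage 5, and 122 and 116 at stage 6. Both stage 6 libraries lay above both stage 5 libraries, and the difference did not pass the main test (log2 difference 0.61, SE 0.25, adjusted p = 0.116, limma). Among the alternatives it passed only with voom on recovered reads (log2 difference 0.60, adjusted p = 0.0247, limma). The values of these genes rested on 1039 and 550 reads at stage 5 and on 26 and 19 reads at stages 2 to 4.

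Spipo12G0058100 (861 bases) came next to Spipo9G0025900 among the highest means at stage 6. It had 0.130, 0.483 and 1.70 FPKM at stage 2, 0.255, 0.502 and 1.25 at stage 3, 0.863, 0.125 and 0.763 at stage 4, 23.7 and 51.6 at stage 5, and 56.2 and 176 at stage 6. Its early values were among the highest of the group in single libraries, and its libraries differed 3.14-fold within stage 6 and 2.18-fold within stage 5. The difference of stage 6 minus stage 5 was 1.48 on the log2(FPKM + 1) scale (SE 0.54, adjusted p = 0.0831, limma). It was 2.30 without stage 6 replicate 1 and 0.67 without stage 6 replicate 2, and 0.94 without stage 5 replicate 1. The adjusted p ran from 0.0412 to 0.45 over its 14 alternatives (limma) and was under 0.05 in 2 of them, the replicate block (0.0412) and voom on recovered reads (0.0443).

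**Figure D3:**
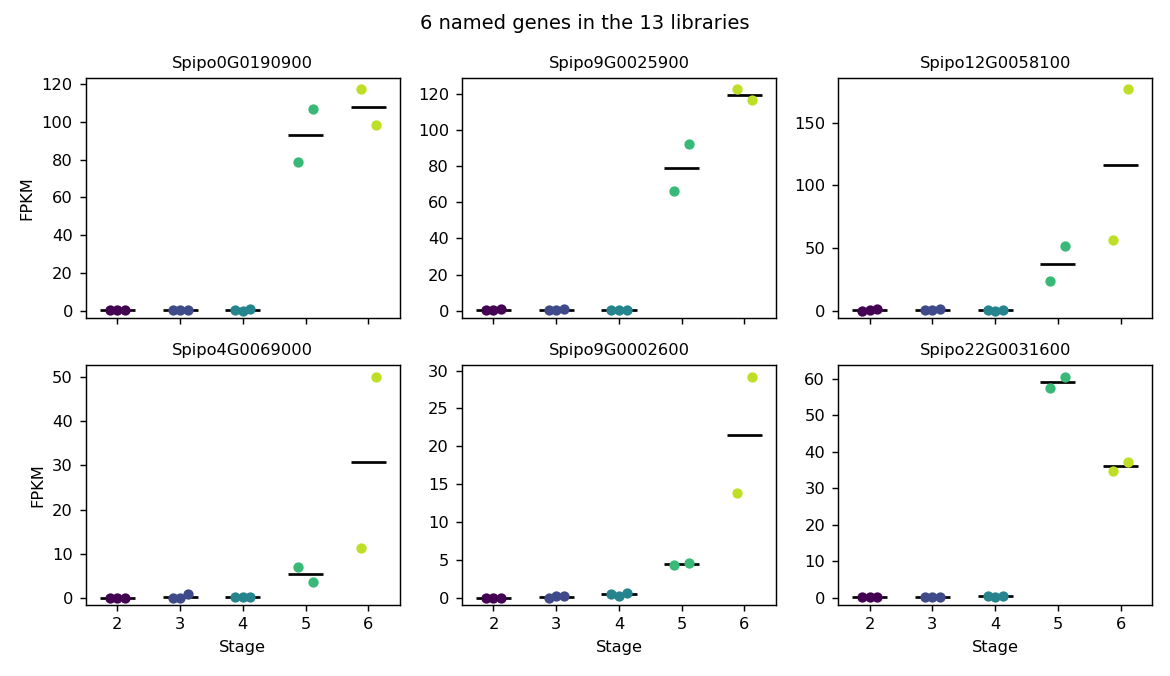
FPKM of 6 genes in every library by stage (points), with the stage mean as a bar and a separate vertical scale for each gene. In Spipo12G0058100, Spipo4G0069000 and Spipo9G0002600 the stage 6 libraries lie apart, and Spipo22G0031600 is lower at stage 6 than at stage 5.

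Stage 6 was compared with stage 5 to ask whether the genes went on changing after they had appeared. The rule sets the same minimum on both stages, so it does not decide which is higher, although it leaves out genes low at either. Genes with adjusted p under 0.05 in limma, adjusted over all 15608 genes tested, are called. All 72 genes were among those tested, having passed the filter of 1 FPKM in 2 libraries through their late values.

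Of the 72 genes 9 (12.5%) were called higher and 1 (1.39%) lower at stage 6 than at stage 5, beside 5.35% called higher and 7.2% called lower over all genes tested. In all 10, the stage 6 and stage 5 libraries did not overlap. These calls do not rest on the late stages alone: of the 8 residual degrees of freedom 6 come from stages 2 to 4, where the rule held the 72 genes below 1 FPKM and so bears on their scatter. A fit of stages 5 and 6 alone, free of those libraries, called 4 genes (5.56%) higher and 1 (1.39%) lower, beside 3.11% and 1.88% of all genes tested. All 5 were among the 10.

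Counted without the test, 24 genes (33.3%) had both stage 6 libraries above both stage 5 libraries and 4 (5.56%) had both below, where all genes tested gave 24.6% above and 33.2% below. The other 44 overlapped. The mean was higher at stage 6 than at stage 5 for 45 genes (62.5%), against 44.6% of all genes tested, and the median log2 difference was 0.24 for the 72 genes and -0.05 for all genes tested.

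Whether the 72 genes leaned towards stage 6, relative to all genes tested, depended on which stage 5 library was kept. Without stage 5 replicate 1 the median log2 difference of the 72 genes was -0.02, against -0.04 over all genes tested. In that fit 34 genes (47.2%) were higher at stage 6, against 45.8% of all genes tested, and 2 (2.78%) were called higher and 1 (1.39%) lower, beside 1.26% and 2.4%. Without stage 5 replicate 2 the median was 0.61, against -0.06 over all genes tested, 62 genes (86.1%) were higher at stage 6, against 44%, and 6 (8.33%) were called higher and 0 lower, beside 1.99% and 1.95%. Leaving out stage 6 replicate 1 or 2 gave medians of 0.31 and 0.22, against -0.03 and -0.07 over all genes tested. There 3 (4.17%) and 5 (6.94%) genes were called higher, beside 1.16% and 4.16%, and 0 and 2 (2.78%) were called lower, beside 0.788% and 8.05%.

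**Figure D4:**
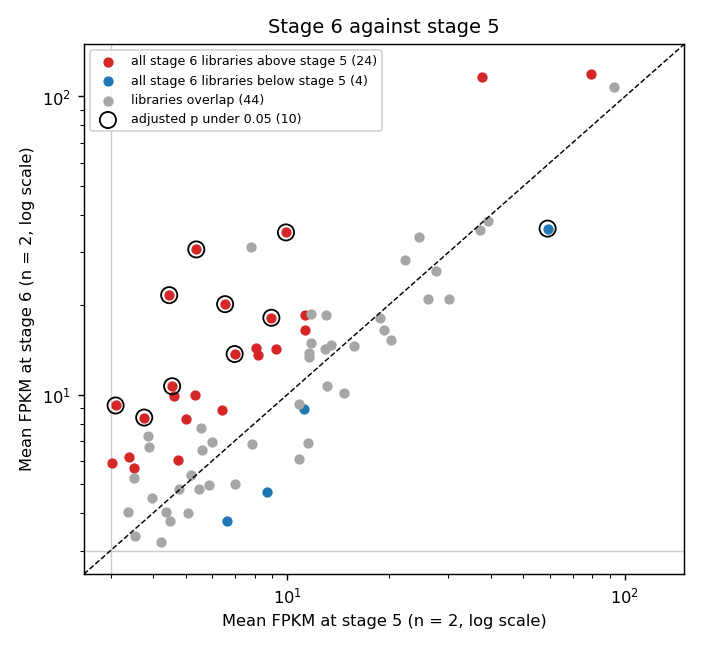
Mean FPKM at stage 6 against mean FPKM at stage 5 for the 72 genes (log scales), with the diagonal of equal means dashed and the minimum of 3 FPKM as grey lines. Of the 10 circled genes with adjusted p under 0.05, 9 lie above the diagonal and 1 below it.

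The largest called rise was that of Spipo4G0069000 (714 bases), which had 11.2 and 50.1 FPKM at stage 6, against 7.09 and 3.67 FPKM at stage 5. Its early values were 0 in all stage 2 libraries, 0, 0 and 0.753 FPKM at stage 3 and 0.297, 0.151 and 0.131 FPKM at stage 4. The stage 6 libraries differed 4.46-fold from each other, and much of the mean came from replicate 2. The log2 difference was 2.03 (SE 0.51, adjusted p = 0.0235, limma), and without stage 6 replicate 2 it was 0.99 with an adjusted p of 0.111 (limma). Without stage 6 replicate 1 it was 3.06. In the fit of stages 5 and 6 alone the adjusted p was 0.0783 (limma). Over its 14 alternatives the adjusted p ran from 0.00869 to 0.436 (limma).

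Spipo9G0002600 (447 bases) had 13.9 and 29.2 FPKM at stage 6, against 4.35 and 4.59 FPKM at stage 5. It had no read at stage 2, 0, 0.242 and 0.241 FPKM at stage 3 and 0.475, 0.241 and 0.630 FPKM at stage 4, so the stage means climbed without a step back. The log2 difference of stage 6 minus stage 5 was 1.96 (SE 0.29, adjusted p = 0.00463, limma). It was the only one of the 10 genes called in all 12 alternatives other than the smaller pseudocounts, where its adjusted p lay between 0.00374 and 0.0338 (limma), and with pseudocounts of 0.1 and 0.01 it was 0.0551 and 0.308.

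Spipo22G0031600 (1128 bases) was the only gene called lower, with 34.8 and 37.3 FPKM at stage 6, against 57.4 and 60.6 FPKM at stage 5. Before that it had 0.0993, 0.0922 and 0.244 FPKM at stage 2, 0.194, 0.192 and 0.191 at stage 3 and 0.471, 0.287 and 0.416 at stage 4. Its libraries were close to each other at both late stages. The log2 difference was -0.70 (SE 0.17, adjusted p = 0.0239, limma), and without stage 5 replicate 1, stage 5 replicate 2 or stage 6 replicate 1 the difference was -0.73, -0.66 and -0.65, with adjusted p of 0.0856, 0.106 and 0.140 (limma). In the fit of stages 5 and 6 alone the adjusted p was 0.0389 (limma). With 1099 reads at stage 5 it had the most of the 72 genes at that stage.

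The other 7 called genes were all higher at stage 6 than at stage 5, by 0.87 to 1.84 on the log2(FPKM + 1) scale. Besides Spipo9G0002600 and Spipo22G0031600, the genes that also passed in the fit of stages 5 and 6 alone were Spipo14G0034300, Spipo2G0060800 and Spipo5G0029200, named after their values were seen. Spipo2G0060800 (1512 bases) had 10.6 and 10.7 FPKM at stage 6, against 4.38 and 4.75 FPKM at stage 5 (log2 difference 1.07, SE 0.28, adjusted p = 0.0262, limma). Spipo14G0034300 (1422 bases) had 20.2 and 16.0 FPKM at stage 6, against 9.21 and 8.74 FPKM at stage 5 (log2 difference 0.93, SE 0.21, adjusted p = 0.0179, limma). Spipo5G0029200 (1758 bases) had 27.0 and 13.2 FPKM at stage 6, against 7.45 and 5.64 FPKM at stage 5 (log2 difference 1.41, SE 0.34, adjusted p = 0.0216, limma). The libraries of these 3 genes were close to each other at stage 5, and at stage 6 only the last had a 2-fold gap.

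The 2 libraries of stage 5 differed in a common direction over the group. Replicate 2 was higher than replicate 1 for 60 of the 72 genes (83.3%), beside 46.6% of all genes tested. The median ratio of replicate 2 to replicate 1 was 1.49 for the 72 genes and 0.983 for all genes tested. The rule used the mean of both libraries and so did not set which was higher. The gap was also present away from the limits: among the 30 genes at 10 FPKM or more, replicate 2 was higher for 27, and at 3 to 20 FPKM it was higher for 49 of 60 genes of the group against 45.4% of 5114 other genes.

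Other genes that differed strongly between stages 5 and 4 leaned the same way, less far. Of 232 further genes called at least 4-fold higher at stage 5 than at stage 4 on the log2(FPKM + 1) scale, 163 (70.3%) were higher in stage 5 replicate 2, with a median ratio of 1.18. Over all 2259 further genes called higher at stage 5 than at stage 4, the share was 49.7%. In single genes of the 72, replicate 2 was at least 2 times replicate 1 for 22 and the opposite held for 2, Spipo23G0025000 and Spipo8G0057200, named after their values were seen. With 2 libraries a stage, it cannot be told which stage 5 library was the unusual one for these genes, and the cause was not tested.

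At stage 6 there was no such lean. Replicate 2 was higher for 38 of the 72 genes (52.8%), beside 55.4% of all genes tested, with a median ratio of 1.03 in both. At least 2-fold gaps were found for 6 genes towards replicate 2 and for 4 towards replicate 1. The 4 genes higher in replicate 1, named after their values were seen, were Spipo20G0021800, Spipo22G0023000, Spipo23G0025000 and Spipo5G0029200. Spipo23G0025000 (759 bases) had 50.8 and 11.9 FPKM at stage 6 and 12.3 and 3.30 FPKM at stage 5, so that replicate 1 was far above replicate 2 at both stages, against the direction of most of the group at stage 5. On the log2(FPKM + 1) scale, the median SD within a stage over the 72 genes was 0.18, 0.26, 0.22, 0.44 and 0.24 at stages 2 to 6, against 0.13 to 0.16 over all genes tested.

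**Figure D5:**
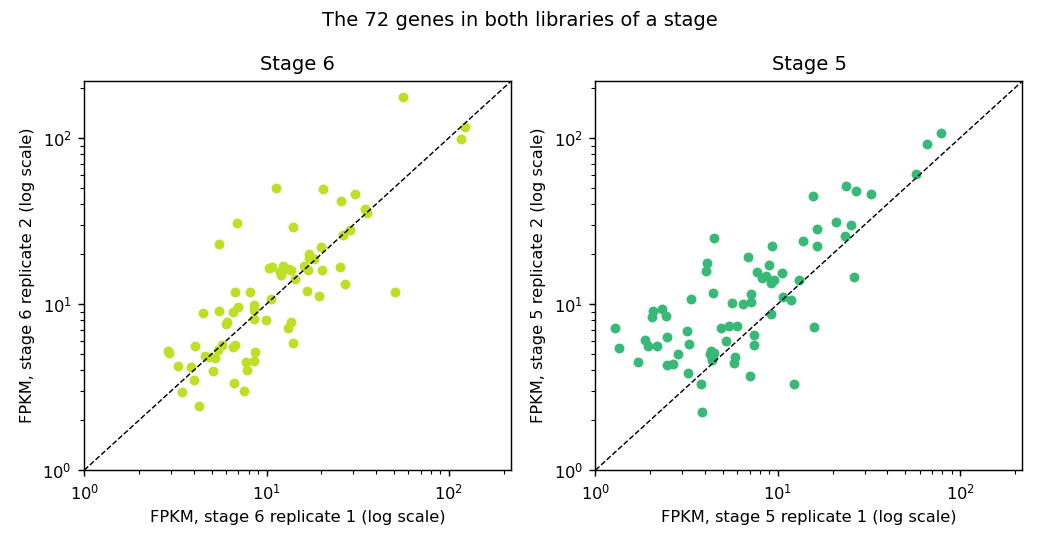
FPKM in replicate 2 against replicate 1 for the 72 genes at stage 6 (left) and stage 5 (right), on log scales with the diagonal of equal values dashed. At stage 6, 38 genes lie above the diagonal, and at stage 5, 60 do.

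Choosing the genes anew with 1 library left out, and then reading them in that library, gave a limited check. The library left out did not enter the choice of genes, but the limits were set with earlier results of these data known. Without stage 5 replicate 1, 76 genes met the rule, and 57 of them (75%) were at 3 FPKM or more in that library, where their median was 5.81 FPKM and 74 were at 1 FPKM or more. Without stage 5 replicate 2, 59 genes met it, and 57 (96.6%) were at 3 FPKM or more there, with a median of 11.4 FPKM. Without stage 6 replicate 1 or 2, it was 67 of 72 (93.1%) and 67 of 71 (94.4%). Most genes so chosen were thus past the late limit in the library left out as well, least often in stage 5 replicate 1. The other library of that stage and the mean of the other late stage still had to meet the limit. The share of all genes at 3 FPKM or more in each library is not given here, so the counts are a description only.

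The same check at the early stages concerned the limit of 1 FPKM. Of the genes chosen without a stage 2 library, 94.5% to 95.8% were below 1 FPKM in it. At stage 3 the shares were 97.1%, 93.2% and 81.7% for replicates 1, 2 and 3, and at stage 4 they were 79.2%, 92.8% and 86.5%. The values past the limit reached at most 2.32 FPKM, in stage 3 replicate 3. Stage 3 replicate 3 and stage 4 replicate 1 had the lowest shares, and they also had the highest summed RPM of the group among the early libraries.

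Sequence and place in the genome could be read only as far as the FPKM values and IDs carry them. Coding lengths, implied by the size of the steps between FPKM values, ran from 222 to 2382 bases. They were multiples of 3 for all 72 genes. Library totals were set so that the lowest values gave such multiples, so this property is partly built in. Their median was 712.5 bases, shorter than the 1017 bases over all genes tested. The other genes below 1 FPKM at stages 2 to 4 had a median of 720.5 bases, which may be too low. The smallest length that gave whole reads was taken, which can be a fraction of the true one where reads are few. Likeness in length to those genes is therefore not established. Under 400 bases lay 10 of the 72 genes (13.9%), against 11.9% of all genes tested. The IDs had 26 of the 33 prefixes in the file, with 9 genes under Spipo0, 6 under Spipo1 and 5 each under Spipo6, Spipo8 and Spipo12. Spipo0 held 12.5% of the 72 genes and 8.78% of the genes tested.

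A few of the genes had IDs next to each other. There were 3 such pairs and no longer run, which took in 6 of the 72 genes. Spipo6G0010800 (453 bases) had 6.86 and 30.6 FPKM at stage 6, and 8.59 and 14.8 FPKM at stage 5. Its neighbour Spipo6G0010900 (663 bases) had 5.47 and 22.9 FPKM at stage 6, and 10.6 and 15.3 FPKM at stage 5. Both were over 4 times higher in replicate 2 than in replicate 1 at stage 6. The ID before them, Spipo6G0010700, was below the limits but leaned alike, with 0.320 and 4.45 FPKM in stage 6 replicates 1 and 2.

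In the other adjacent pairs, stage 5 replicate 2 was above stage 5 replicate 1, as for most of the 72 genes. Spipo20G0024600 (234 bases) had 6.64 and 3.37 FPKM at stage 6, and 3.33 and 10.7 FPKM at stage 5. Spipo20G0024700 (303 bases) had 3.42 and 2.97 FPKM at stage 6, and 1.28 and 7.15 FPKM at stage 5. In both, stage 5 replicate 2 was the highest library, over 3 times replicate 1, although these 2 genes rested on 28 and 22 reads at stage 5. Spipo12G0008700 (234 bases) had 16.6 and 12.03 FPKM at stage 6, against 4.44 and 11.7 FPKM at stage 5. Spipo12G0008800 (1104 bases) had 3.87 and 4.18 FPKM at stage 6, and 2.47 and 6.30 FPKM at stage 5. At stage 6 the libraries of this last pair leaned in opposite directions. Neighbouring copies of similar sequence or overlapping models can share reads, so each such pair may count less than 2 independent genes.

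The pair Spipo8G0057200 (330 bases) and Spipo8G0057400 (1530 bases), named after its values were seen, stood against the group. Spipo8G0057200 had 8.63 and 5.12 FPKM at stage 6, and 15.7 and 7.25 FPKM at stage 5. Spipo8G0057400 had 19.5 and 11.1 FPKM at stage 6, and 26.2 and 14.4 FPKM at stage 5. Both were higher in replicate 1 than in replicate 2 at both late stages, and the gene between them, Spipo8G0057300, was at 0.125 FPKM or less in every library.

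Outside these pairs, the genes next to the 72 in ID order were called at shares near those of all genes tested. Of 136 flanking genes that were not of the group, 115 were tested, and 19 of these (16.5%) were called higher at stage 5 than at stage 4 by limma, beside 14.9% of all genes tested. They were called lower in 31 cases (27.0%), against 30.7% of all genes tested. At least 2-fold higher on the log2(FPKM + 1) scale were 7 of the 115 (6.09%), against 6.07% of all genes tested. The median log2 difference of stage 5 minus stage 4 was -0.10 for the flanking genes and -0.17 for all genes tested.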

How the data were processed

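Messenger RNA was sequenced in 13 libraries of frond tissue, 1 column per library in the table the authors deposited, in FPKM. The tools named, per the submitters' processing notes, are HTSeq 0.11.3, HISAT2 2.2.1, Trimmomatic 0.39, Picard 2.25.5 and CASAVA 1.8.2. Per the labels' protocols the library kit was stranded. Genome build, annotation and strand setting: not given in the sources used here. Therefore overlapping or near-identical genes may share reads. FPKM values are relative to the library total.

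Within a gene, FPKM moves in steps of 1 read. From these steps the library totals, coding lengths and reads were recovered with Python 3.11.15. For 100% of 17445 genes the reads so obtained were whole to within 0.001. These reads served for depth, sums, ratios and an alternative test.

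Differences were tested with limma 3.58.1 under R 4.3.3, on log2(FPKM + 1), with a mean-variance trend, 1 mean per stage and all 13 libraries. Tested were 15608 genes that reached 1 FPKM in 2 or more libraries. Benjamini-Hochberg adjustment ran over all genes tested. Errors are SD or SE over libraries. Both steps were tested on simulated data.

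The 72 genes, the limits and the tests were chosen with earlier results of these data known. Genes were named by these rules: the 2 highest means at stage 5 and at stage 6, the 2 largest called rises and falls from stage 5 to stage 6 without overlap, those with no read at stages 2 to 4 (none), those next to the limits, and those with neighbouring IDs. Gene lists by product name were planned and could not be applied to IDs without names.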

Additional observations from a re-analysis of the deposited data

How the results depend on the processing

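The count of 72 genes was 34 with an early limit of 0.5 FPKM, 153 with 2 FPKM and 33 when every library had to meet the limits, by the construction of those limits. It was 98 and 48 with late limits of 2 and 5 FPKM, 81 with median ratio scaling and 59 to 76 with 1 library left out. For stage 6 against stage 5, pseudocounts of 0.1 and 0.01 called none of the 72 genes (0 higher, 0 lower, limma), with 6 and 0 genes at an unadjusted p under 0.05. The median SE of the 72 genes was then 0.76 and 1.41, against 0.31 with a pseudocount of 1, while that of all genes tested was 0.19, 0.19 and 0.18. The fit of both stages alone, with fewer samples, called 4 higher and 5 in all. Without the filter and with quantile normalization 2 genes were called lower, not 1, and the cause was not tested. Leaving out 1 library, so that the remaining library is taken to scatter as other stages do, gave 2 to 6 genes called higher, 0 to 2 lower and 3 to 7 in all. With 1 library left out, most of the 10 reported genes lost their call in each such fit. Except without stage 6 replicate 1, some of the genes called there were not among the 10. Library weights called 9 genes, median ratio scaling 12 and voom on recovered reads 11, of which 8 were among the 10 reported. Of 179 alternative values of the genes named by rule, 160 kept their side of the threshold. Of the rest, 13 lost a call, 6 gained one and none reversed. Only Spipo4G0069000, Spipo9G0002600 and Spipo22G0031600 among these genes were called in the main fit, and every lost call was theirs. Most of the 160 values belong to genes that were not called and stayed so. The median difference of stage 5 minus stage 4 was 4.46 and 5.17 with pseudocounts of 0.1 and 0.01, 2.83 with median ratio scaling and 2.35 to 2.83 with 1 library left out, alternatives chosen after seeing the data.

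Between libraries of equal replicate number, deviations from the stage means correlated by -0.24 to 0.37, with 7 of 23 above 0.1. Stages 5 and 6 gave 0.156 for both numbers, which is a single value because 2 deviations mirror each other. On average, 8 of 13 libraries correlated best with libraries of their own number. Equal numbers were not treated as pairs in the main fit, and whether they share a source was not tested. Under a replicate block 11 genes were called higher and 1 lower, 12 in all. Genes with few reads at stages 2 to 4 cannot be ordered among those stages at this depth.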
